A study of Mus musculus with 2 samples.

Results

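This account covers 36 mouse genes whose transcripts are typical of sympathetic neurons, the glia around them and chromaffin cells, the hormone-secreting cells of the adrenal medulla. The genes were listed by symbol, and 35 of them matched 1 of the 43346 mouse genes measured. Foxd3os found no match and has no value here. They were chosen by their measured expression, several of them because their level had differed between these 2 kidney pools, so each difference between the pools is given as a description, without a test.

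Kidneys were taken from healthy B6NCrl mouse embryos at embryonic day 15.5, with males and females combined. The replicate 1 library came from a pool of 78 embryos and the replicate 2 library from a pool of 62 embryos, each made from 10 ng of total RNA. Both are biological replicates of 1 group without any genotype or treatment contrast, so the only comparison open to these genes is of level within a library and between the pools. The libraries held 36244861 and 39415002 expected counts (assigned reads, estimated where a read fits several genes), with the added ERCC spike-in RNAs included. On mouse genes alone the totals were 35300964 and 38104202.

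Sympathetic neurons and chromaffin cells both descend from the neural crest, a migratory embryonic cell population. They make noradrenaline from tyrosine by consecutive enzyme steps, store it with granin proteins in dense-core vesicles and release it by regulated vesicle fusion. Chromaffin cells also methylate noradrenaline to adrenaline. Sympathetic axons enter the developing kidney along its arteries, whereas their cell bodies lie in ganglia outside it, and the adrenal gland sits directly above the kidney.

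Transcripts of these genes were present at low to moderate levels in both pools and were mostly more abundant in the replicate 2 pool. Levels are given as TPM, a relative transcript abundance that is adjusted for gene length and so allows genes to be compared within a library. Of the 35 genes, 25 reached 1 TPM in both libraries, 7 reached it in the replicate 2 pool but not in the replicate 1 pool, and 3 (Insm1, Nefh and Elavl3) stayed below it in both. The median over the 35 genes was 2.85 TPM in replicate 1 and 6.23 TPM in replicate 2, and their summed level was 206.0 and 453.89 TPM. The highest means over the 2 libraries were those of the ubiquitin hydrolase gene Uchl1 (58.2 ± 17.2 TPM, SD, n = 2), the neuropeptide gene Npy (41.9 ± 26.9 TPM) and the neurotrophin receptor gene Ngfr (22.2 ± 1.48 TPM). Uchl1 was above Npy in both libraries, at 46.1 against 22.9 TPM in replicate 1 and 70.3 against 61.0 TPM in replicate 2.

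The pools were compared over the 27 genes with a mean expected count of at least 100 over the 2 libraries, a minimum that limits counting error. Of these 27 genes, 20 had a TPM at least 2-fold higher in the replicate 2 pool, 0 were 2-fold higher in the replicate 1 pool, and 7 lay within 2-fold. Hand1 (36 counts in replicate 1), Scg2 (52), Disp2 (53), Pcsk1n (71) and Snap25 (82) are among the 20. They passed the minimum only through their higher counts in replicate 2, as did Isl1 (75) and Stmn4 (87), which lay within 2-fold. Over all 13507 genes above the same minimum, 0.829% were at least 2-fold higher in replicate 2 and 0.4% in replicate 1. The median log2 ratio of replicate 2 over replicate 1 was 1.35 for the 27 genes and 0.02 for all genes compared. Elavl2, Gap43, Nefm, Prph, Stmn2 and Syt4 fell under 2-fold when the libraries were scaled to the added ERCC spike-in RNAs, and Elavl2 also did with TMM or DESeq2 factors, under which Isl1 passed it. Because the list was drawn up from this contrast, nothing about the genes is read from these shares. The same holds for the counts by role given below. At the 2-fold boundary, Syt4 lay just inside with 2.04-fold and Stmn4 just outside with 1.89-fold. The 8 genes below the minimum were Pnmt, Scg3, Cartpt, Phox2a, Hand2, Insm1, Nefh and Elavl3. Whether a pool held fewer cells of a type or cells with less RNA of these genes cannot be told apart in bulk tissue.

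**Figure D1:**
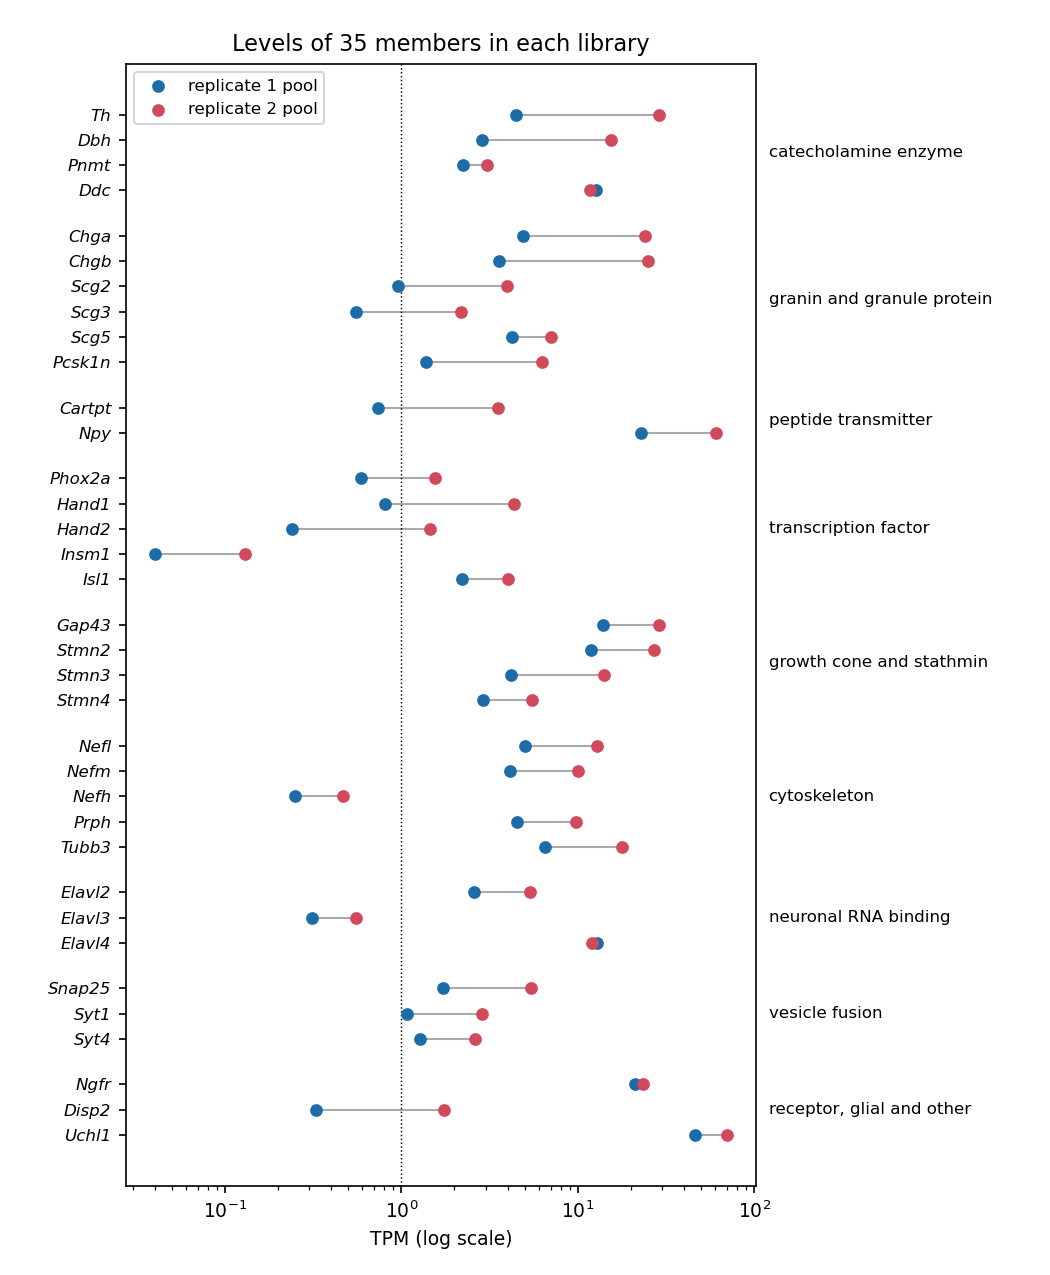
Each row is 1 gene, ordered by role, with its TPM (log axis) in the replicate 1 pool (blue) and the replicate 2 pool (red). The dotted line marks 1 TPM, and the red point lies to the right of the blue one for 33 of the 35 genes, all but Ddc and Elavl4 (32 under spike-in scaling, where Ngfr also changed side).

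Among the enzymes of catecholamine synthesis, Th and Dbh differed widely between the pools, while Ddc did not. Th encodes tyrosine hydroxylase, the rate-limiting step, and lies on mouse build GRCm38 at chr7:142892752-142931128 on the minus strand. Its level was 4.48 TPM in replicate 1 (190 counts) and 28.7 TPM in replicate 2 (1296 counts). The ratio was 6.41, with an interval of 5.5 to 7.50. Intervals here are 95% intervals of the ratio of counts by the exact Clopper-Pearson method, rescaled to the TPM ratio. They cover counting error only, not the spread between embryos. Dbh, which encodes the enzyme that turns dopamine into noradrenaline (chr2:27165233-27183200), stood at 2.85 and 15.5 TPM. The Dbh ratio of 5.44 (4.62 to 6.43) overlapped that of Th, and the level of Dbh per unit of Th was 0.636 in replicate 1 and 0.540 in replicate 2.

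Pnmt encodes the enzyme that methylates noradrenaline to adrenaline and marks the chromaffin cells that make adrenaline. It stood at 2.24 TPM in replicate 1 (58 counts) and 3.06 TPM in replicate 2 (85 counts). The Pnmt ratio of 1.37 has a counting interval of 0.967 to 1.94 that includes 1, and its upper bound lies below the lower bounds of Th and Dbh. Relative to Th, Pnmt was 0.5 in replicate 1 and 0.107 in replicate 2. The 2 pools therefore differed in the proportion of these transcripts to each other and not only in their amount.

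Ddc encodes aromatic L-amino acid decarboxylase, which makes dopamine and is also present in cells that make no catecholamines, among them kidney tubule cells. Its gene (chr11:11814101-11898144, minus strand) stood at 12.7 TPM in replicate 1 and 11.7 TPM in replicate 2, a ratio of 0.921 (0.813 to 1.04). In replicate 1 it was the most abundant of the 4 enzyme transcripts, and in replicate 2 Th and Dbh lay above it.

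The totals of Ddc were similar in the 2 pools, but its transcripts differed in both directions. Ddc is known to have separate first exons for neuronal and non-neuronal cells, and the transcripts measured here began mainly at start sites 7736 bases apart. Transcripts from the upstream start summed to 6.63 TPM in replicate 1 and 3.56 TPM in replicate 2, which is 52.2% and 30.5% of the gene. Those from the downstream start summed to 2.50 and 6.53 TPM, or 19.7% and 55.9%. The 4 transcripts that began elsewhere in the gene were also lower in replicate 2, at 3.58 and 1.6 TPM, or 28.2% and 13.7%. The quantifier's own intervals, of a level that the tables do not state, were 0.179 to 3.29 TPM and 3.66 to 7.09 TPM for the main downstream transcript and do not overlap. For the main upstream transcript they were 3.61 to 7.92 TPM and 1.96 to 5.27 TPM and do overlap. Which start serves which cell type was not tested.

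**Figure D2:**
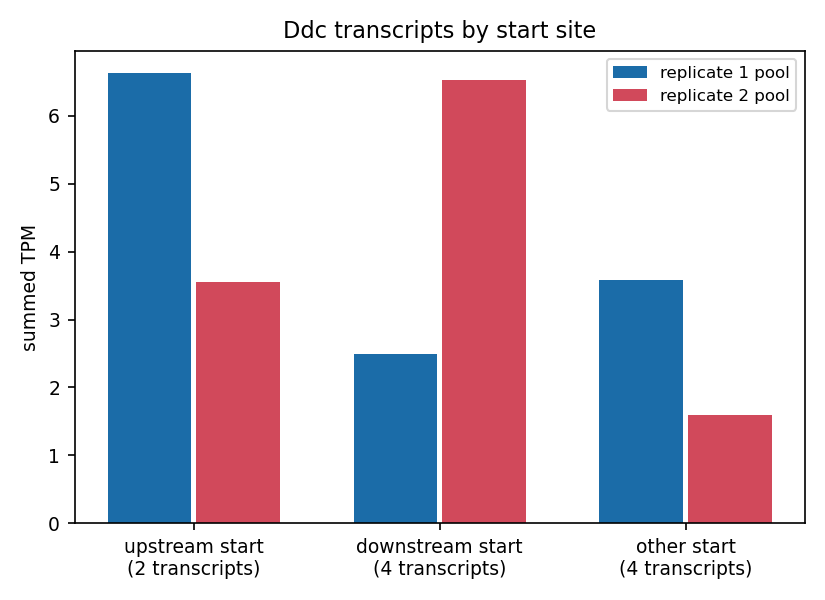
Bars give the summed TPM of the Ddc transcripts that begin at the upstream start (2 transcripts), at the downstream start (4 transcripts) and elsewhere in the gene (4 transcripts), in the replicate 1 pool (blue) and the replicate 2 pool (red). The upstream bars stand at 6.63 (blue) and 3.56 TPM (red), the downstream bars at 2.50 and 6.53 TPM, and the bars of the other starts at 3.58 and 1.6 TPM.

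The 120 bases in front of each Ddc start are shown because the transcripts of these starts differed in opposite directions. They come from RefSeq (GRCm38.p6), are written on the minus strand 5′ to 3′, and end at the base before the start. Capitals mark a match to the TATA box letters TATAAA, which in the first lies on the opposite strand, 62 bases before the start. The second holds no match to these letters.
Ddc upstream start, chr11:11898145-11898264: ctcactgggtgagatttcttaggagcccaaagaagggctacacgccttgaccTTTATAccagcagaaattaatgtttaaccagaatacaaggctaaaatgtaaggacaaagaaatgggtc
Ddc downstream start, chr11:11890409-11890528: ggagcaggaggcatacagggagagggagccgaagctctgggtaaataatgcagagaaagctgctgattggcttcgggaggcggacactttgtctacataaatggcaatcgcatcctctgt

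The granins and their companions are the core of the dense-core vesicle. Of the 5 compared, 4 were at least 2-fold higher in replicate 2, against 0.829% of all genes compared. Among these 4, Scg2 (52 counts in replicate 1) and Pcsk1n (71) passed the count minimum only through replicate 2. Chga, chromogranin A (chr12:102554969-102565028), stood at 4.86 TPM in replicate 1 and 24.1 TPM in replicate 2, a ratio of 4.96 (4.28 to 5.77). Chgb, chromogranin B (chr2:132781278-132795079), stood at 3.56 and 25.1 TPM. Its ratio of 7.05 (6.14 to 8.13) was the highest of the 27 genes compared and lay above the interval of Chga. Chgb was accordingly the lower of the pair in replicate 1, at 0.733 of Chga, and level with it in replicate 2, at 1.04.

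The remaining vesicle genes were lower in level. Scg2, secretogranin II, stood at 0.96 and 3.95 TPM, a ratio of 4.11 (3.04 to 5.67). Pcsk1n, which encodes the proSAAS inhibitor of a prohormone convertase, stood at 1.38 and 6.23 TPM, a ratio of 4.51 (3.49 to 5.91). The intervals of Chga, Scg2 and Pcsk1n overlap one another, so these 3 are not ordered by their ratio. Scg3, a secretogranin that binds chromogranin A, stood at 0.55 and 2.19 TPM on 29 and 124 counts, under the minimum. Scg5, the chaperone 7B2 of another convertase, differed least, with 4.23 and 7.01 TPM and a ratio of 1.66 (1.31 to 2.10). By the translated GENCODE M21 transcripts, the granin precursors range from 212 residues in Scg5 to 677 in Chgb, and adjoining pairs of basic residues, at which convertases can cut, number 23 in Chgb and 9 each in Chga and Scg2.

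The 2 peptide transmitter genes differed in the same direction at very different levels. Npy encodes neuropeptide Y, which sympathetic neurons release with noradrenaline, and stood at 22.9 TPM in replicate 1 and 61.0 TPM in replicate 2. Its ratio of 2.66 (2.31 to 3.08) lies below the intervals of Th and Dbh, so that Npy was 5.11 times the level of Th in replicate 1 and 2.12 times in replicate 2. Cartpt, the precursor of the CART peptides, rested on 14 and 72 counts, at 0.74 and 3.52 TPM. With so few counts the Cartpt ratio of 4.76 had an interval of 2.66 to 9.13.

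A cyclic AMP response element (CRE, the letters TGACGTCA, a palindrome that reads the same on both strands) was found in front of Th, Chgb, Scg2 and Cartpt. CREs are bound by CREB-family factors in neuroendocrine cells. The bases around these matches are shown because these 4 genes, from 3 of the roles described above, share the element. A relation of the element to the ratios between the pools was not tested. RefSeq promoters (GRCm38.p6, 300 bases each, from 250 before to 50 after a start) were at hand for 23 of the 36 genes, with 33 promoters in all. The element was in 4 of the 33 (12.1%) and in 1.79% of all 32851 promoters of the same length. Capitals mark the element, and each sequence runs 5′ to 3′ on the gene's strand.
Th, chr7:142900015-142900125, minus strand: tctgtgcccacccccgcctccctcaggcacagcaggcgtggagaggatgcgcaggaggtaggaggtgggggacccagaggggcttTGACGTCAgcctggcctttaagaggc
Chgb, chr2:132781559-132781588, plus strand: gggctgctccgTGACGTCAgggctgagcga
Scg2, chr1:79440076-79440105, minus strand: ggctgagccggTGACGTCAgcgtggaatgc
Cartpt, chr13:99900777-99900806, minus strand: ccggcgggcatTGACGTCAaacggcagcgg

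The element ended 37 bases before the RefSeq start of Th, 64 before that of Chgb, 60 before that of Scg2 and 104 before that of Cartpt. In Chgb, Scg2 and Cartpt it falls inside a first exon of the GENCODE M21 annotation, whose starts lie farther upstream, and 30 bases are shown there. A match describes the letters and is not evidence of binding. Of the other 6 motifs searched on both strands, 3 were each found in 1 gene's promoters, 2 in none, and the TATA box at close to its share of all promoters. They were the RE1 core of the neuronal repressor REST (CAGCACC, any 2 bases, then GGACAG), in 0 promoters of these genes and 0.0365% of all, its left part TTCAGCACC, in Scg2 and 0.371% of all, and its right part GGACAGCGC, in 0 and 0.405%. The left part and the core can overlap. The homeodomain letters TAATNNAAT were found in Elavl4 and 3.24% of all, the TATA box in Chga, Ddc, Elavl3 and Prph and 13.6% of all, and the Sp1 letters GGGGCGGGG in Phox2a and 11.4% of all.

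The 5 transcription factor genes were low, and only 2 could be compared. Hand1, a basic helix-loop-helix factor of sympathetic progenitors, stood at 0.81 TPM in replicate 1 and 4.35 TPM in replicate 2, a ratio of 5.37 (3.75 to 7.89). Hand2, its close relative (58.9% identical in protein), stood at 0.24 and 1.46 TPM on 12.58 and 82 counts. Hand2 was at 0.296 of Hand1 in replicate 1 and 0.336 in replicate 2. The value in replicate 1 rests on 12.58 counts of Hand2 and 36 of Hand1, too few to tell whether the proportion was kept.

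Phox2a, a homeodomain factor needed for noradrenergic identity, stood at 0.59 and 1.56 TPM on 22 and 62 counts. Insm1, a zinc-finger factor of neuroendocrine progenitors, was at 0.04 and 0.13 TPM on 3 and 10 counts, too few for a ratio. Isl1, a LIM-homeodomain factor, stood at 2.21 and 4.04 TPM, a ratio of 1.83. Its counts differed more than its TPM, 75 against 247. The reason is a short transcript with a retained intron, which was assigned 47.6% of the gene in replicate 1 and 0 in replicate 2. That assignment rested on 14.89 counts in replicate 1. The quantifier's intervals for this transcript overlap, at 0.263 to 1.89 TPM in replicate 1 and 9.74e-06 to 1.14 TPM in replicate 2. The main coding transcript of Isl1 stood at 0.88 and 3.71 TPM.

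The genes of growing axons were more abundant than the transcription factors. Of the 4, 3 were at least 2-fold higher in replicate 2, against 0.829% of all genes compared. Gap43 and Stmn2 fell under 2-fold with spike-in scaling. Gap43, a growth cone protein, stood at 13.9 TPM in replicate 1 and 28.8 TPM in replicate 2, a ratio of 2.07. Stmn2 (SCG10), a microtubule-destabilising stathmin of growth cones, stood at 11.9 and 26.9 TPM, a ratio of 2.26. Stmn3 (SCLIP) had the largest ratio of the 4, 3.36, with 4.17 and 14.0 TPM. Stmn4 (RB3) stood at 2.92 and 5.53 TPM. The 3 stathmins are 65.9% to 73.2% identical in protein, and their coding sequences share no run longer than 21 bases. Relative to Th, Stmn2 was 2.66 in replicate 1 and 0.938 in replicate 2, so the axonal gene led in replicate 1 and was nearly level with the enzyme in replicate 2.

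All 4 cytoskeletal genes compared were at least 2-fold higher in replicate 2, against 0.829% of all genes compared, within a narrow range of ratios. Nefm and Prph fell under 2-fold with spike-in scaling, and Prph also did when 1 TPM was added to both levels. Nefl, the light neurofilament subunit, stood at 5.02 and 12.8 TPM, a ratio of 2.55. Nefm, the medium subunit, stood at 4.11 and 9.99 TPM, a ratio of 2.43. The 2 subunits assemble together, and the level of Nefm per Nefl was 0.819 in replicate 1 and 0.781 in replicate 2. Nefh, the heavy subunit, which is known to be added late in axon maturation, was at 0.25 and 0.47 TPM on 24 and 48 counts. Prph, peripherin, the intermediate filament of peripheral neurons, stood at 4.50 and 9.73 TPM, a ratio of 2.16. Tubb3, the neuronal beta tubulin, stood at 6.53 and 17.8 TPM, a ratio of 2.72.

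The neuronal RNA-binding genes did not move as 1 family. Elavl2 (HuB) stood at 2.57 and 5.33 TPM, a ratio of 2.07. Elavl3 (HuC) was at 0.31 and 0.55 TPM on 37 and 72 counts. Elavl4 (HuD) stood at 12.8 TPM in replicate 1 and 12.03 TPM in replicate 2, with a ratio of 0.939 (0.831 to 1.06) that includes 1. The level of Elavl4 per Elavl2 was thus 4.98 in replicate 1 and 2.26 in replicate 2. The proteins are 82.2% to 88.9% identical, but the coding sequences share no run longer than 29 bases. Elavl4 was spread over 5 transcripts that held at least 10% of the gene in a library, and the leading one, at 31.8% and 32.8%, is annotated as a processed transcript rather than a coding one.

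Vesicle fusion genes were low, and all 3 were at least 2-fold higher in replicate 2, against 0.829% of all genes compared. Snap25, with 82 counts in replicate 1, passed the count minimum only through replicate 2. Syt4 fell under 2-fold with spike-in scaling, and when 0.1 or 1 TPM was added to both levels. Syt1 fell under it when 1 TPM was added. Snap25, the plasma-membrane SNARE of regulated release, stood at 1.73 and 5.46 TPM, a ratio of 3.16. Syt1, the calcium sensor of fast release, stood at 1.07 and 2.88 TPM, a ratio of 2.69. Syt4, a synaptotagmin of dense-core vesicles, stood at 1.28 and 2.61 TPM. Their summed level was 4.08 TPM in replicate 1 and 10.9 TPM in replicate 2. The leading Snap25 transcript held 85.2% of the gene in replicate 1 and 83.9% in replicate 2, so its transcript makeup was alike in both pools.

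The 3 remaining genes differed in their ratios. Disp2, a Dispatched-family membrane protein, stood at 0.33 and 1.74 TPM, a ratio of 5.27. Ngfr, the p75 neurotrophin receptor of neurons, Schwann cells and mesenchyme, stood at 21.2 and 23.3 TPM, a ratio of 1.10 (1.03 to 1.17) that fell below 1 under spike-in scaling. Uchl1, the neuronal ubiquitin hydrolase PGP9.5, stood at 46.1 and 70.3 TPM, a ratio of 1.53 (1.41 to 1.65). A transcript with a retained intron held 79.8% and 75.2% of Uchl1, and the coding form stood at 8.36 and 16.2 TPM. The high rank of Uchl1 thus rested mostly on a form that is not annotated as coding.

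**Figure D3:**
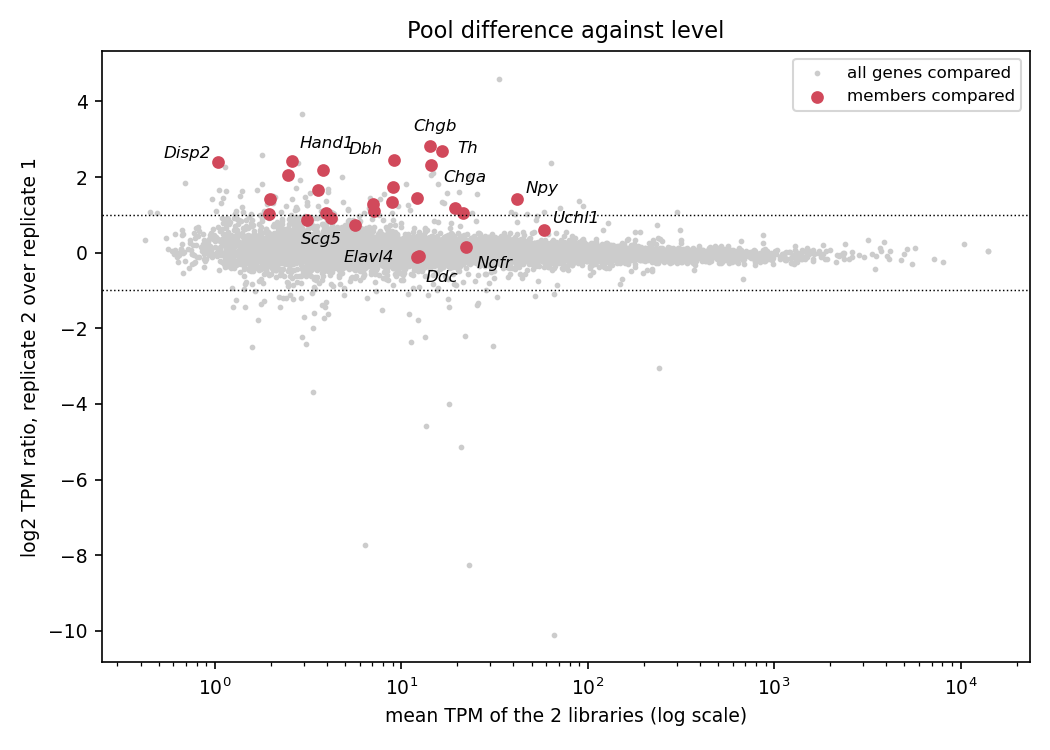
Each point is a gene with a mean expected count of at least 100, placed by its mean TPM over the libraries (log axis) and its log2 TPM ratio, replicate 2 over replicate 1. Red points are the 27 listed genes, grey points are all 13507 genes compared, and dotted lines mark 2-fold. Chgb, Th, Dbh and Hand1 stand highest among the red points, and Ddc, Elavl4 and Ngfr lie near 0.

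By role, the median log2 ratio was 2.44 for the enzymes (3 genes), 2.17 for the granins (5 genes), 1.65 for transcription factors (2 genes), 1.43 for vesicle fusion (3 genes), 1.41 for Npy, the 1 peptide gene compared, 1.32 for the cytoskeleton (4 genes), 1.12 for growth cone and stathmin genes (4 genes) 0.61 for the receptor, glial and other genes (3 genes) and 0.48 for RNA binding (2 genes). These medians describe few genes each, and no difference between roles was tested.

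Exon bases are shared with another annotated gene for 8 of the 35 genes, and for 7 of these the other gene lies on the opposite strand. Whether the counting used strand is not given in the sources used here. Reads in these stretches may belong to either gene. Nefl and Nefm share 1108 bases with each other. Hand2 shares 461 bases with Hand2os1, Syt4 566 with Gm26658 and Uchl1 295 with Uchl1os. Smaller stretches join Pcsk1n to Eras (135 bases) and Phox2a to Inppl1 (95 bases), and Elavl3 shares 256 bases with Gm49318 on its own strand.

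The label was checked against wider lists of the same cells. Defining genes of Schwann and satellite glia were low: 5 of the 12 glial genes, among them the defining Sox10, Foxd3, S100b and Cdh19, stayed below 1 TPM in both libraries. Sox10 was at 0.33 and 0.78 TPM on 21 and 54 counts. Of the 5 glial genes that could be compared, 1 was at least 2-fold higher in replicate 2, against 0.829% of all genes compared. It was Gfra3, the artemin co-receptor, at 1.62 and 4.85 TPM. Gfra3, on 75 and 242 counts, passed the count minimum only through replicate 2. Ednrb (33.8 TPM), Fabp7 (9.03 TPM) and Erbb3 (8.31 TPM) led this list by mean level, and single values in brackets from here on are means of the 2 libraries. The defining glial genes thus rest on few counts, whereas 25 of the 35 listed genes reached 1 TPM in both libraries.

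Other genes of the same pathways, taken from wider lists, mostly lay within 2-fold. Over all 13507 genes compared, 0.829% were at least 2-fold higher in replicate 2. The counts in the lists below stand beside that share, and the lists were chosen with earlier results of these data known. In catecholamine handling, 1 of 10 compared was 2-fold higher in replicate 2, the noradrenaline transporter Slc6a2, at 0.69 and 2.12 TPM, and the list median log2 ratio was 0.33. Among its highest genes were Qdpr (131 TPM) and Pts (58.6 TPM), which serve pterin recycling and pterin synthesis. The 7 sympathoadrenal transcription factors compared had a median log2 ratio of -0.07. The highest of that list, Gata3 (84.1 TPM), Sox11 (60.7 TPM) and Tfap2b (46.1 TPM), are also genes of kidney epithelium or mesenchyme.

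Dense-core granule and processing genes gave 1 of 6, the granule membrane protein Ptprn at 0.39 and 1.89 TPM, with a median of 0.17. Ptprn, on 33 and 167 counts, passed the count minimum only through replicate 2. Nnat (214 TPM), Cpe (58.2 TPM) and Pam (24.5 TPM) were the highest. Synaptic vesicle genes gave 2 of 10, Syp (1.78 and 4.48 TPM) and Syn2 (1.17 and 2.35 TPM), with a median of 0.31, and Vamp2 (75.1 TPM) and Snap91 (17.1 TPM) were among the highest. Pan-neuronal genes gave 2 of 11, Rtn1 (9.27 and 23.6 TPM) and Ina (1.43 and 3.39 TPM), with a median of 0.36, led by Ncam1 (109.9 TPM) and Dpysl3 (35.04 TPM) with Rtn1 next. In each of these 3 lists 0 genes were 2-fold higher in replicate 1.

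Neurotrophin and GDNF-family receptors gave 1 of 8, again Gfra3, which passed the count minimum only through replicate 2. The list median was 0.36, with Gfra1 (53.3 TPM), Sort1 (11.5 TPM) and Ret (9.17 TPM) highest. The 7 genes of the REST complex, which silences neuronal genes elsewhere, all lay within 2-fold, led by Hdac1 (219.7 TPM), Hdac2 (186.8 TPM) and Kdm1a (34.1 TPM). Markers of other neurons were scarce. Of 5 cholinergic genes, 3 stayed below 1 TPM in both libraries, and Ache (2.58 TPM), Vip (2.54 TPM) and Slc18a3 (0.295 TPM) were the highest. Of 8 sensory neuron genes, 5 stayed below 1 TPM, with Scn10a at 0 in both, and Runx1 (1.45 TPM), Calca (1.11 TPM) and Scn9a (0.95 TPM) were the highest. Of 8 pancreatic and gut endocrine genes, 7 stayed below 1 TPM, and none reached the count minimum, with Sst (0.685 TPM), Ghrl (0.51 TPM) and Ins2 (0.48 TPM) the highest.

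**Figure D4:**
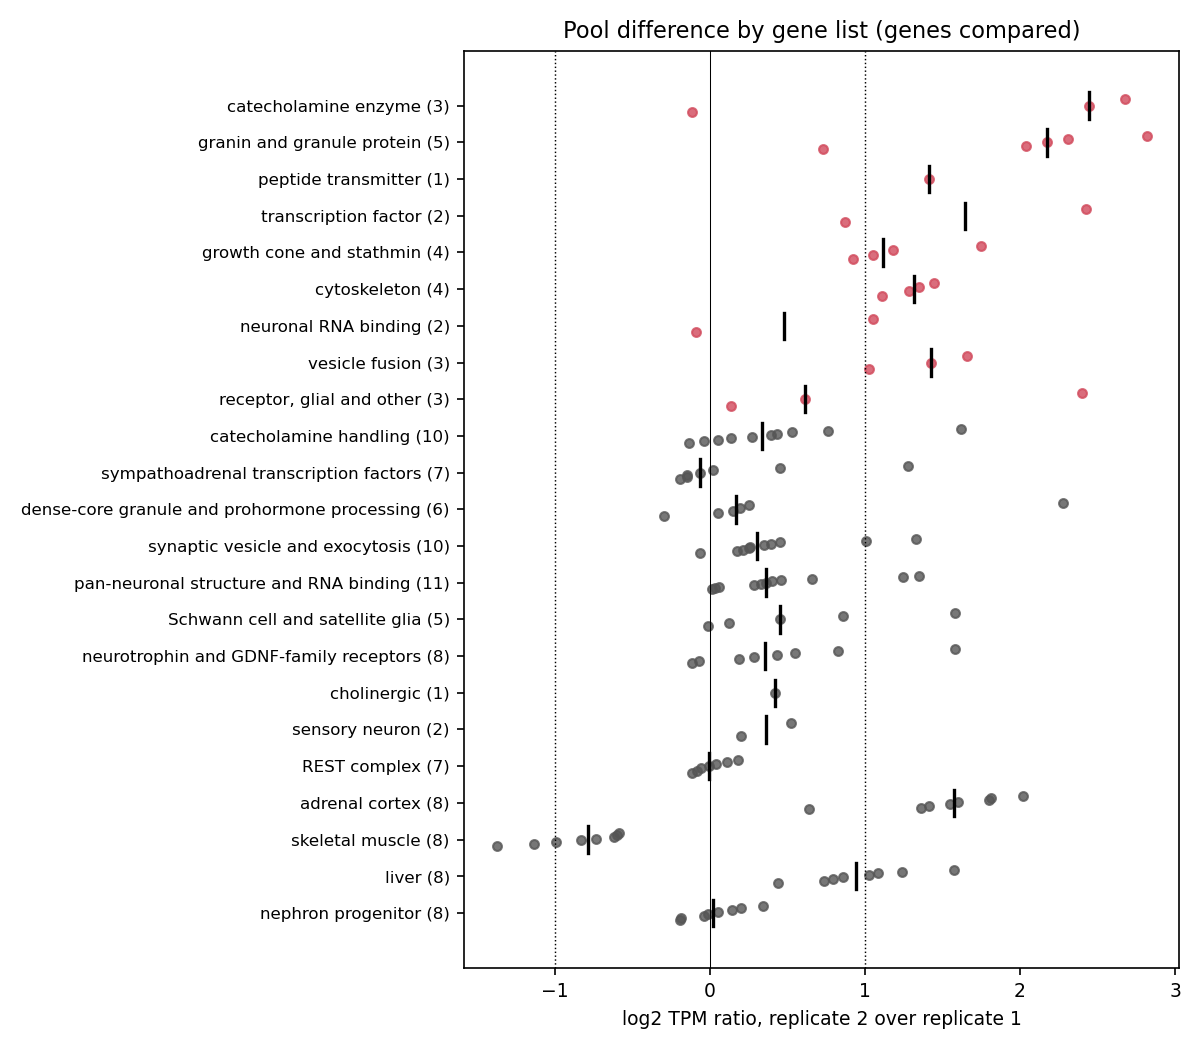
Each point is 1 gene above the count minimum, placed by its log2 TPM ratio, replicate 2 over replicate 1, and black bars are list medians, with the number of genes in brackets. Red rows hold the listed genes by role and grey rows other lists, and dotted lines mark 2-fold. The adrenal cortex row lies with the red rows to the right, at a median of 1.58, and skeletal muscle lies to the left, at -0.78.

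Markers of other tissues moved with the same contrast. Over all 13507 genes compared, 0.829% were at least 2-fold higher in replicate 2 and 0.4% in replicate 1. The adrenal cortex, liver and muscle counts below stand beside these shares. Of the 9 adrenal cortex genes, which make steroids next to the medulla, 8 were compared and 7 were at least 2-fold higher in replicate 2. Their summed level was 97.9 TPM in replicate 1 and 283 TPM in replicate 2, a ratio of 2.89. Akr1b7 (50.7 and 129.96 TPM), Cyp11a1 (12.9 and 37.8 TPM) and Cyp21a1 (9.06 and 36.8 TPM) were the highest, and Hsd3b1, Cyp11b1, Star and Nr5a1 also passed 2-fold. Nr5a1, on 72 and 208 counts, passed the count minimum only through replicate 2. Th was 0.346 of the level of Cyp11a1 in replicate 1 and 0.759 in replicate 2, and Chga was 0.376 and 0.637 of it. The ratio between the pools was 2.93 (2.66 to 3.22) for Cyp11a1, an interval below those of Th and Chga, but 4.06 (3.65 to 4.52) for Cyp21a1, an interval that overlaps that of Chga.

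Liver genes were also higher in replicate 2, with 4 of 8 at least 2-fold (Trf, Apoa1, Alb and Ahsg), a summed level of 231 and 461 TPM, and Afp (129 TPM) the highest. Skeletal muscle genes lay the other way, with 2 of 8 (Tnnc2 and Ckm) at least 2-fold higher in replicate 1 and a summed level of 558 and 315 TPM, led by Acta1 (149 TPM), Actc1 (102.5 TPM) and Mylpf (54.2 TPM). Nephron progenitor genes were level, with 0 of 8 past 2-fold and a summed level of 321 TPM in both libraries, led by Cited1 (125.5 TPM), Crym (60.6 TPM) and Eya1 (41.3 TPM). The part of these other tissues in the differences of the sympathetic and chromaffin genes was not tested.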

How the data were processed

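Total RNA of embryonic kidney was measured in 2 libraries of 1 group. The deposited expected counts are the authors' estimates of reads per gene and need not be whole. The deposited TPM values, used as levels, and FPKM values, used as an alternative, are the authors' own length-scaled columns. The deposited percent of a gene held by each transcript, and the limits given for each transcript's TPM, are also the authors' columns, per the file headers. The reads were mapped to mm10 with GENCODE M4, per the text files beside the tables. Which aligner, quantifier and strand setting were used is not given in the sources used here.

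The genes and lists were chosen with earlier results of these data known. Identifiers were matched to GENCODE M21 (42462 of 43346 genes). Named are all listed genes and, of each of the 15 other lists, the 3 highest by mean TPM and those at least 2-fold different with a mean expected count of at least 100. The glial genes below 1 TPM, and Scn10a, were named after their values were seen. Some genes that fall under this rule are not reported here. No pseudocount was used for ratios. With 1 group, no p was computed. Total expected counts of 36244861 and 39415002, spike-ins included, set the precision, and a count of 0 allows up to 3 counts. The labels name no molecular identifiers, so several reads can stem from 1 molecule and intervals cover counting error only. No column of another sample was present (0 columns). Alternatives included edgeR TMM factors (4.0.16), DESeq2 size factors (1.42.0) and the ERCC spike-in total. Python 3.11.15, pandas 2.3.3, SciPy 1.17.1, Biopython 1.88 and R 4.3.3 were used.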

Additional observations from a re-analysis of the deposited data

How the results depend on the processing

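With 1 group of 2 libraries, these values rest on 1 pool against another. No paired analysis was possible because there is 1 group. At a threshold of 5 TPM, 9 genes were detected in both libraries, against 25 at 1 TPM, and single libraries gave 25 to 32. The mean level over the genes was 9.43 TPM against a median of 4.22 TPM, and the median in single libraries was 2.85 to 6.23 TPM. At 3-fold, 10 genes were higher in replicate 2, against 20 at 2-fold. The median log2 ratio of 1.35 was 1.00 when scaled to the ERCC spike-ins, and 1.00 without the count minimum at a pseudocount of 1 TPM. ERCC scaling moved the median of all genes to -0.33 and left 14 of the 20 genes past 2-fold (Elavl2, Gap43, Nefm, Prph, Stmn2 and Syt4 were lost), and Ngfr changed side. A pseudocount of 1 TPM left 16. TMM and DESeq2 factors each gave 20, of which 19 were the same, with Isl1 in place of Elavl2. Of 245 single-gene ratios under 7 other scalings and pseudocounts, 210 stayed within the counting interval, 35 moved and 0 past-threshold ratios reversed. The cause of these changes was not tested. Depth limits the 8 genes under the count minimum.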
